A study of Mus musculus with 11 samples.

Results

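GABA is the main inhibitory transmitter of the adult brain, and 7 genes of its signalling were described in whole brains of mice lacking a nicotinic receptor subunit and of wild-type mice. They were Gabra2, Gabra6, Gabrb1 and Gabrd, which encode subunits of the GABA-A receptor, Gabbr1, which encodes a subunit of the GABA-B receptor, Gad1, which encodes a GABA-making enzyme, and Slc32a1, which encodes the vesicular GABA transporter. Members were all probe sets annotated to 1 of these symbols, which gave 8 probe sets for 7 of the 8251 genes named on the array. Gabra6 had 2 probe sets and each of the other genes had 1. All 8 passed the filter on dim probe sets (a mean signal of at least 25.8).

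The study compared 5 mice that carry no functional β4 nicotinic acetylcholine receptor subunit (null mutants) with 6 wild-type mice, all untreated C57BL/6J animals, with 1 array per brain. The null mice were 2 males (null 1 and 2) and 3 females (null 3 to 5), aged 7 to 9 weeks. The wild-type mice were 4 males (wild-type 1, 2, 4 and 6) and 2 females (wild-type 3 and 5), aged 6 to 9 weeks. The animal numbers of 8 mice began with B4 (all null mice and wild-type 1 to 3) and those of the other 3 wild-type mice, all 6 weeks old, with LT. The labels call each wild-type mouse a littermate of nicotinic receptor subunit mutant mice and do not name the mutant line. RNA of a whole brain mixes all its regions, and fewer cells of a type and less RNA per cell cannot be told apart in it.

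Neurons make GABA from glutamate with glutamate decarboxylases, and the vesicular GABA transporter loads it into synaptic vesicles. GABA-A receptors are chloride channels assembled from subunits of several families, and the subunits set where a receptor sits and how it responds. GABA-B receptors are G protein-coupled and act more slowly, and need both of their subunits to reach the cell surface. The α6 subunit is known for cerebellar granule cells, the δ subunit for receptors outside synapses, and the α2 subunit for forebrain synapses. The β4 subunit, encoded by Chrnb4, is best known from the medial habenula and from autonomic ganglia.

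Before the results, 2 facts of the arrays bear on every value. The 2 male null arrays stood apart from the other 9. They scored 47.3 and 49.2 on the first principal component (39.7% of the variance), where the others scored -16.3 to -2.03. Their median signal was 56.3 and 58.3 against 43.6 to 49.8 elsewhere. The ratio of the 3′ to the 5′ Gapdh control probe sets, a measure of how far labelled RNA reaches toward the 5′ end of a transcript, was 0.798 and 0.859 in them, 2.19 to 3.58 in female null and 3.57 to 5.92 in wild-type brains. The β-actin ratio was 1.33 to 1.53, 2.89 to 3.97 and 3.59 to 5.45 in the same order. No probe set is named for Chrnb4 here, so no value of the disrupted gene tests which brains are null. Markers of the brain were present: in wild-type brains the mean signal was 6025 for the neuronal gene Snap25, 2473 for the myelin gene Mbp, 285 for the astrocyte gene Gfap and 545 for the Purkinje cell gene Pcp2.

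GABA-A receptor genes lie in clusters, and 3 of the members belong to them. On mouse chromosome 5 the order is Gabrg1, Gabra2, Cox7b2, Gabra4 and Gabrb1, and on chromosome 11 Gabra6 lies beside Gabrb2 (RefSeq, GRCm38.p6). Gabrd lies on chromosome 4 beside Prkcz, Gabbr1 on chromosome 17 beside Mog, and Gad1 and Slc32a1 both on chromosome 2. RefSeq promoter windows were given for 6 of the 7 genes, 2 of them for Gabrb1, whose upstream window is shown. Shown here are the 250 bases before the start of 4 receptor genes, because Gabra2 and Gabrb1 share a cluster and moved in opposite directions in the male null brains, Gabbr1 rose with Gabra2, and Gabra6 gave a different value for each probe set. The windows are chr5:71095850-71096099 (Gabra2, minus strand), chr5:71657671-71657920 (Gabrb1, plus strand), chr11:42321073-42321322 (Gabra6, minus strand) and chr17:37045716-37045965 (Gabbr1, plus strand), in GRCm38.p6, each written 5′ to 3′ on the strand of its gene with GC boxes (GGGCGG on either strand) in capitals.
Gabra2: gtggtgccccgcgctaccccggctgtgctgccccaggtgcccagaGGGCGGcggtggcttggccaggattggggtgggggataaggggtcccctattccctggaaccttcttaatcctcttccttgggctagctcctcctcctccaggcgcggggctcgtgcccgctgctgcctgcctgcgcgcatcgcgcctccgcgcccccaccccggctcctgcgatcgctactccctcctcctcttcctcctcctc
Gabrb1: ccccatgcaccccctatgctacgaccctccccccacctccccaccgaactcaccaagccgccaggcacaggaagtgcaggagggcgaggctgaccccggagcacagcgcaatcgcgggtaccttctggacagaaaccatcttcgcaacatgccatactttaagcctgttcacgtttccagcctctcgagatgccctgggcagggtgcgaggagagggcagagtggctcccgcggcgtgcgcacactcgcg
Gabra6: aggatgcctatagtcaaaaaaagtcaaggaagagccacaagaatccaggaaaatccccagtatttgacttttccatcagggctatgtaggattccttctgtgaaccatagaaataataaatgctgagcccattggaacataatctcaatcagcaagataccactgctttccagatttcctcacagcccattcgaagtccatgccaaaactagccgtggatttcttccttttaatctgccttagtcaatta
Gabbr1: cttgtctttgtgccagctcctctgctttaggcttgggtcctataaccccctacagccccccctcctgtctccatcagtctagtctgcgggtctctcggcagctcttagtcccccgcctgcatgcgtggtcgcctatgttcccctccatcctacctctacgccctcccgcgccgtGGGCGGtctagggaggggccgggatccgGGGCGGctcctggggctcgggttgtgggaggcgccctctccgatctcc
The Gabra2 window held 1 GC box and 18 CpG dinucleotides at 70.0% GC, and the Gabbr1 window 2 GC boxes and 16 CpG at 66.0% GC. The Gabrb1 window had 18 CpG at 64.4% GC and no GC box, and the Gabra6 window 2 CpG at 40.8% GC and no GC box. Among 32817 promoter windows of the same length, 32.7% held a GC box, the median GC content was 52.4% and the median number of CpG was 6. An E-box (CANNTG) was found in the Gabra2 window and in 66.2% of all windows. These are letter matches only, and nothing on binding was measured.

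The first question of the design was whether these genes differ between null and wild-type brains. No member passed the test with all 11 brains: 0 of 8 probe sets were called, against 0.0268% (2 of 7453) of all tested probe sets (limma, sex as covariate, Benjamini-Hochberg adjusted p under 0.05). Without the adjustment, 6 of the 8 had a p under 0.05, against 23.1% of all. The widest differences were those of Gabra2 and Gabra6 92940_s_at, above 0, and the widest below 0 was that of Slc32a1. In 0 of 8 did the null brains lie apart from all wild-type brains, against 1.09% of all probe sets. Each p-value sets a difference against the spread among these 11 mice that genotype and sex leave unexplained. limma draws that spread in part from all tested probe sets.

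**Figure D1:**
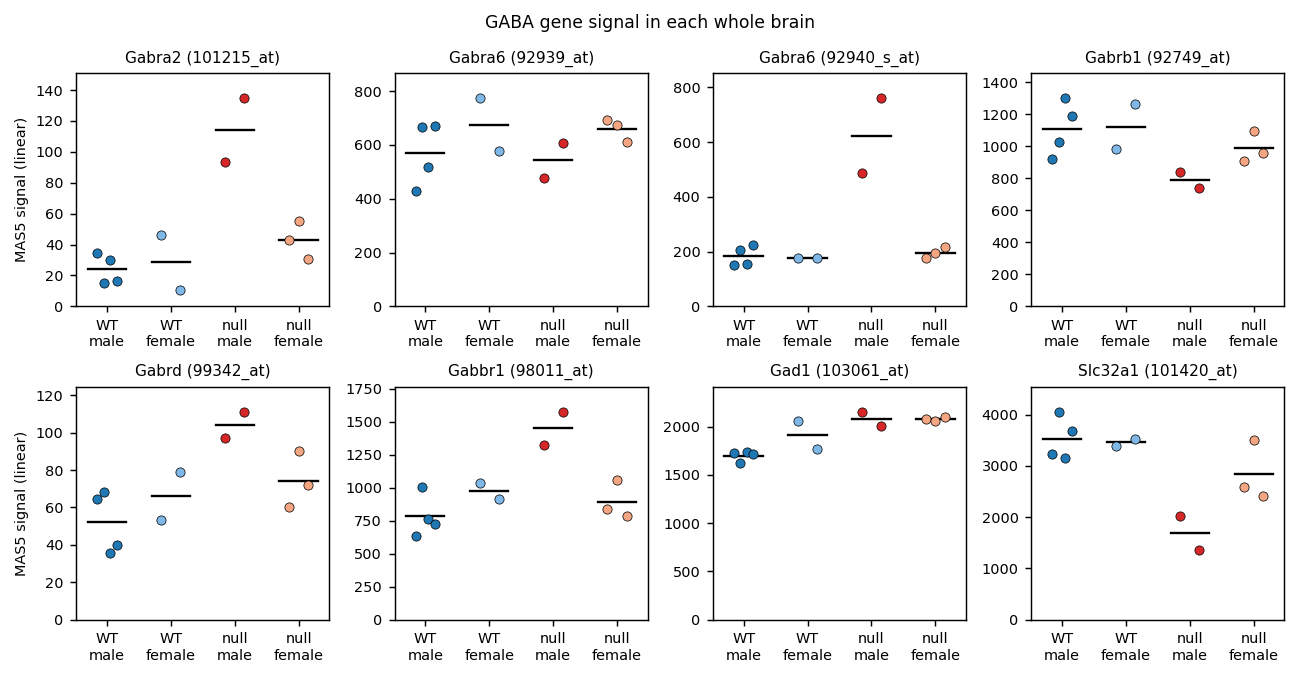
MAS5 signal (linear, y axis from 0) of the 8 GABA probe sets in each of the 11 brains, split by genotype and sex; points are brains and bars are means (4 wild-type males, 2 wild-type females, 2 null males, 3 null females). The male null brains lie above the other 9 for Gabra2, Gabra6 92940_s_at, Gabrd and Gabbr1 and below them for Gabrb1 and Slc32a1.

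Gabra2 encodes the α2 subunit of the GABA-A receptor. Its signal was 34.6, 15, 46.2, 29.9, 10.9 and 16.6 in wild-type 1 to 6 and 93.4, 134.7, 42.8, 55.5 and 30.5 in null 1 to 5. The male null brains were the highest, the female null brains spanned the upper wild-type values, and the groups overlapped through null 3 and null 5. Wild-type brains averaged 25.5 ± 13.7 (SD, n = 6) and the null brains 71.4 ± 42.5 (SD, n = 5), a log2 difference of 1.64 (SE 0.43, limma adjusted p = 0.0896). Without wild-type 3 the difference was 2.18 and passed (adjusted p = 0.0266), and without the male null brains it was 0.89 (adjusted p = 0.999). The wild-type mean lay under the level of the filter, so Gabra2 was tested through the higher null values.

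Slc32a1, the vesicular GABA transporter, marks neurons that release GABA or glycine. Wild-type 1 to 6 gave signals of 3230, 4063, 3387, 3159, 3535 and 3692, and null 1 to 5 gave 2017, 1354, 2593, 3513 and 2405. Of the null brains, 4 lay below every wild-type brain and null 4 lay among them. The wild-type level of 3511 ± 334 (SD, n = 6) stood against a null level of 2376 ± 793 (SD, n = 5), a log2 difference of -0.72 (SE 0.18, limma adjusted p = 0.0852). This difference passed once wild-type 3 (-0.82, adjusted p = 0.0477) or wild-type 5 (-0.80, adjusted p = 0.0291) was left out. It was -0.31 without the male null brains (adjusted p = 0.999) and -0.77 among the B4 animals (adjusted p = 0.0909).

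Gad1 encodes a glutamate decarboxylase, the enzyme that makes GABA. Its signal was 1724, 1622, 2064, 1734, 1769 and 1719 in wild-type 1 to 6. In null 1 to 5 it was 2158, 2013, 2082, 2058 and 2106. All null brains lay above 5 of the 6 wild-type brains, and only wild-type 3 reached their range. Means were 1772 ± 151 (SD, n = 6) and 2083 ± 54.0 (SD, n = 5), a log2 difference of 0.21 (SE 0.10, limma adjusted p = 0.206), with 0.12 (adjusted p = 0.999) left when the male null brains were taken out. Centring each array on its median left 0.03 (adjusted p = 0.876). Gad1 and Slc32a1, both of them genes of GABA neurons, thus had differences of opposite sign.

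Gabra6 encodes the α6 subunit of the GABA-A receptor, and its probe sets did not give the same value. Probe set 92939_at, the brighter, gave 428.2, 665.7, 773.5, 518.1, 575.8 and 671.9 in wild-type 1 to 6 and 478.4, 608.0, 692.1, 674.1 and 609.4 in null 1 to 5. All null values lay inside the wild-type range. The means were 606 ± 123 (SD, n = 6) and 612 ± 83.9 (SD, n = 5), and the log2 difference with sex in the model was -0.04 (95% interval -0.36 to 0.28, limma adjusted p = 0.894). Probe set 92940_s_at gave 149.6, 207.6, 177.9, 155.1, 174.9 and 225.0 in wild-type brains and 486.0, 760.0, 177.4, 193.6 and 217.7 in null brains. The male null brains lay far above the rest and the female null brains inside the wild-type range. Its means were 182 ± 29.5 (SD, n = 6) and 367 ± 253 (SD, n = 5), a log2 difference of 0.99 (SE 0.27, limma adjusted p = 0.0941), which passed without wild-type 3 (1.17, adjusted p = 0.0496) or wild-type 5 (1.17, adjusted p = 0.0295). Without the male null brains it was 0.15 (adjusted p = 0.999).

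The ratio of both Gabra6 probe sets within a brain showed the split. The signal of 92939_at over that of 92940_s_at was 2.86 to 4.35 in the 6 wild-type brains and 2.80 to 3.9 in the 3 female null brains, and 0.984 and 0.800 in null 1 and null 2. Both male null brains had the lowest Gapdh ratios as well. The part of RNA reach in the split was not tested. In males the probe sets' genotype differences lay 1.80 log2 apart. Of 926 genes with several tested probe sets, 84 (9.07%) had probe sets at least that far apart, with a median distance of 0.708, and 45.9% had differences of both signs. Whether Gabra6 read higher in the male null brains therefore depends on the probe set.

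**Figure D2:**
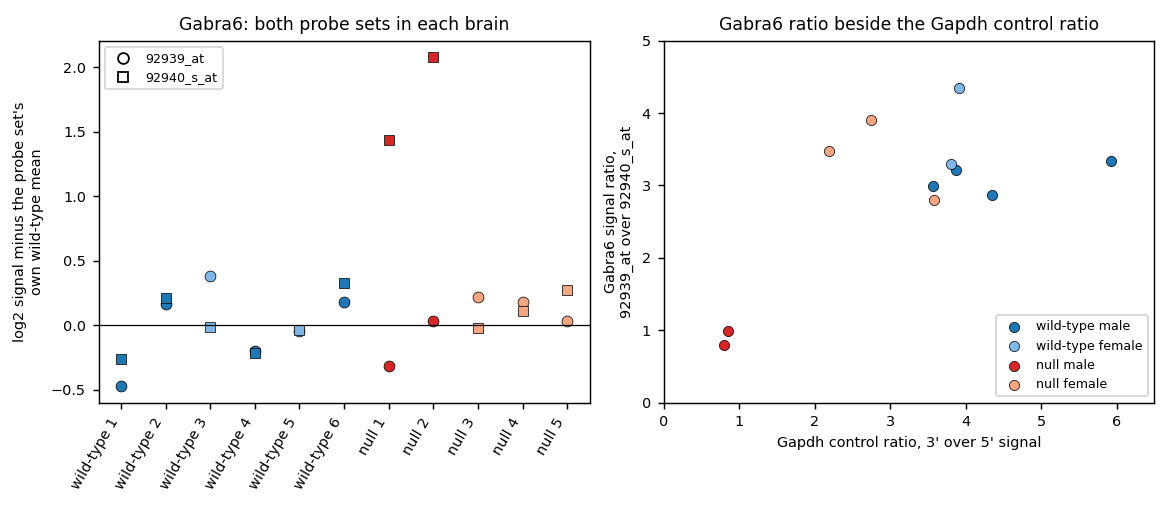
Left, log2 signal of both Gabra6 probe sets in each brain minus that probe set's own wild-type mean (circles 92939_at, squares 92940_s_at); right, the within-brain ratio of 92939_at to 92940_s_at signal against the Gapdh 3′ to 5′ control ratio, 1 point per brain. Only the 2 male null brains, at ratios of 0.984 and 0.800, have squares far above circles.

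Gabrb1 encodes the β1 subunit of the GABA-A receptor. Its signal was 922.1, 1024, 980.7, 1299, 1262 and 1189 in wild-type 1 to 6 and 838.5, 739.6, 907.3, 1092 and 956.7 in null 1 to 5. Of the null brains, 3 lay below every wild-type brain and null 4 and null 5 overlapped them. Wild-type brains averaged 1113 ± 158 (SD, n = 6) and null brains 907 ± 132 (SD, n = 5), a log2 difference of -0.34 (SE 0.13, limma adjusted p = 0.161). The LT wild-type brains held the 3 highest values, and among the B4 animals alone the difference was -0.17 (adjusted p = 0.441). It was -0.18 without the male null brains (adjusted p = 0.999).

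Gabrd encodes the δ subunit of the GABA-A receptor. The signal was 64.3, 68.3, 53.3, 35.7, 79.0 and 39.9 in wild-type 1 to 6, and 96.9, 111.3, 60.5, 90.4 and 71.8 in null 1 to 5. Null 1, 2 and 4 were above every wild-type brain and the others overlapped. Means were 56.8 ± 16.9 (SD, n = 6) and 86.2 ± 20.2 (SD, n = 5), a log2 difference of 0.64 (SE 0.25, limma adjusted p = 0.165). Without wild-type 5, the highest wild-type brain, the difference passed at 0.84 (adjusted p = 0.0493), and without the male null brains it was 0.17 (adjusted p = 0.999).

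Gabbr1 encodes the GABA-B receptor subunit that binds GABA. Wild-type 1 to 6 gave 635.9, 1008, 1038, 764.7, 918.4 and 722.6, and null 1 to 5 gave 1325, 1578, 837.5, 1056 and 785.9. The male null brains were highest, null 4 was just above the highest wild-type brain, and null 3 and null 5 lay within the wild-type range. Means were 848 ± 164 (SD, n = 6) and 1117 ± 334 (SD, n = 5), 0.41 apart on the log2 scale (SE 0.20, limma adjusted p = 0.234). It turned to -0.14 without the male null brains (adjusted p = 0.999).

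With the Gapdh ratio added to the model beside sex, 0 of 8 members were called, against 0% of all tested probe sets (limma, 347 with an unadjusted p under 0.05, none of them a member). The log2 differences were then 0.81 (SE 0.69) for Gabra2, -0.38 (SE 0.27) for Slc32a1, 0.13 (SE 0.15) for Gad1 and -0.13 (SE 0.21) for Gabrb1. Those of Gabrd, Gabbr1 and Gabra6 92940_s_at took the opposite sign, at -0.08 (SE 0.36), -0.34 (SE 0.22) and -0.10 (SE 0.28). For Gabra6 92939_at it was -0.14 (SE 0.25). The standard errors grew for all 8, and the ratio separates the male null brains from all others. It also ran with genotype in the other brains, at 2.19 to 3.58 in female null and 3.57 to 5.92 in wild-type brains. This model therefore cannot fully part the ratio from genotype.

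The genotype difference was then read within each sex, and whether the sexes differ was tested separately (below). Among males, 6 of 8 member probe sets were called between 2 null and 4 wild-type brains (limma, 4 groups of genotype and sex, Benjamini-Hochberg), against 32.6% of all tested probe sets. Gabra2, Gabra6 92940_s_at, Gabrd and Gabbr1 rose, 4 of 8 against 17.8% of all, and Slc32a1 and Gabrb1 fell, 2 of 8 against 14.8%. These male calls rest on the 2 arrays that stood apart, and array and condition cannot be told apart in them. The same 6 probe sets had the male null brains apart from all other 9 brains, against 37.2% of all probe sets.

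Gabra2 rose by 2.32 log2 (SE 0.54, adjusted p = 0.00562, limma), from 24.0 ± 9.71 (SD, n = 4) in wild-type to 114 ± 29.2 (SD, n = 2) in null males; it passed the filter only through its higher null values, and its call and its place in the counts above rest on that. Gabra6 92940_s_at rose by 1.74 (SE 0.21, adjusted p = 1.02e-04), from 184 to 623, while 92939_at differed by -0.06 (95% interval -0.48 to 0.37). Gabrd rose by 1.05 (SE 0.31, adjusted p = 0.0189), from 52.1 ± 16.6 to 104 ± 10.2, and Gabbr1 by 0.91 (SE 0.18, adjusted p = 0.00234), from 783 ± 159 to 1452 ± 179 (SD, n = 4 and 2). Gabbr1 and some GABA-A receptor probe sets thus rose in these 2 brains. Gabrb1, also of the GABA-A receptor, fell (-0.48), and Gabra6 92939_at was not called.

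Slc32a1 fell by 1.09 log2 in males (SE 0.18, limma adjusted p = 7.84e-04), from 3536 ± 423 (SD, n = 4) to 1686 ± 469 (SD, n = 2). Gabrb1 fell by 0.48 (SE 0.16, adjusted p = 0.0366), from 1109 ± 168 to 789 ± 69.9. Gad1 differed by 0.29 (SE 0.11) and just missed the threshold (adjusted p = 0.0516), at 1700 ± 52.2 against 2086 ± 103. Gad1 passed in limma with no filter (adjusted p = 0.0390), with a filter at the 60th percentile (0.0453) and with quantile normalization (0.51, adjusted p = 0.00172). With median centring the difference was 0.011 (adjusted p = 0.955). Without wild-type 3 or wild-type 5 it stayed at 0.29.

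Some male calls turned on single brains. Without null 1 or null 2 the male null arm is 1 brain, assumed to vary like the other groups, and so is the wild-type female arm without wild-type 3 or wild-type 5. Without null 2, 3 of the 6 were left, and those of Gabra2 (adjusted p = 0.0760), Gabrd (0.138) and Gabrb1 (0.240) were lost. Without null 1, Gabrd (adjusted p = 0.0741) and Gabrb1 (0.0887) were lost, and Gabrb1 also without wild-type 4 (0.0778) or wild-type 6 (0.0741). Under quantile normalization Gabrd (0.81, adjusted p = 0.0624) and Gabrb1 (-0.35, adjusted p = 0.111) were not called, nor was Gabrd under median centring (0.77, adjusted p = 0.0667). The calls of Gabra6 92940_s_at, Gabbr1 and Slc32a1 held in each of these settings.

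**Figure D3:**
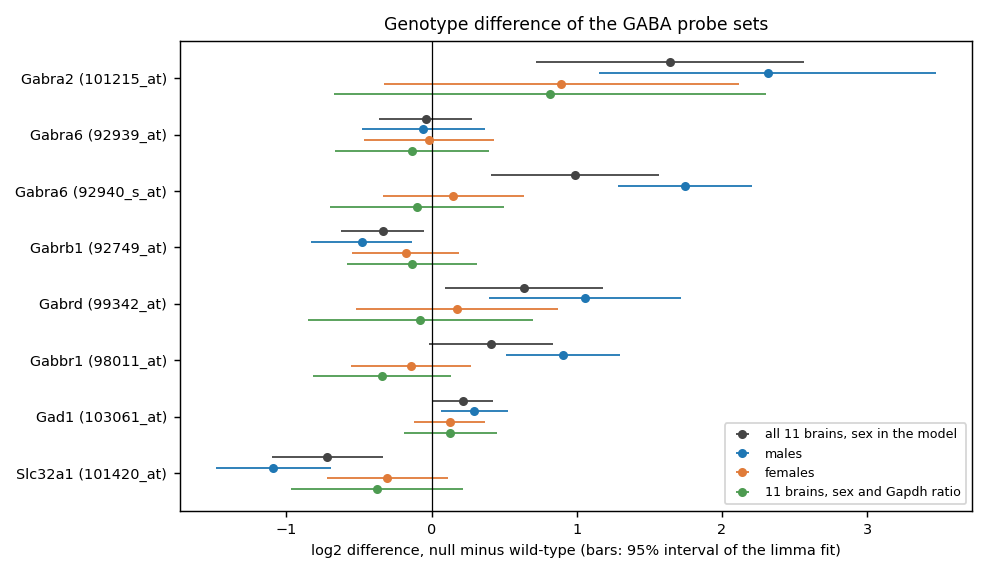
Log2 difference, null minus wild-type, of the 8 GABA probe sets with its 95% interval from limma, in all 11 brains with sex in the model, in males, in females, and in all 11 brains with sex and the Gapdh ratio in the model. In males 6 of 8 were called, and in females every interval includes 0.

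In females, 3 null against 2 wild-type brains, 0 of 8 members were called, against 0% of all tested probe sets (308 of 7453 had an unadjusted limma p under 0.05, and none of the members did). Female null brains averaged 42.9 ± 12.5 (SD, n = 3) for Gabra2, a log2 difference of 0.89 (95% interval -0.33 to 2.12), and 2837 ± 593 for Slc32a1, a difference of -0.31 (-0.72 to 0.11). For Gad1 the difference was 0.12 (-0.12 to 0.37), for Gabrb1 -0.18 (-0.55 to 0.19) and for Gabrd 0.17 (-0.52 to 0.87). Gabbr1 gave -0.14 (-0.55 to 0.27), Gabra6 92939_at -0.02 (-0.47 to 0.43) and 92940_s_at 0.15 (-0.34 to 0.64). These intervals leave room for changes in either direction, and those of Gabra2 are the widest. The differences for 9 brains without the male null brains equal these, with somewhat other intervals, since the remaining null brains are all female. In 0 of 8 were the 3 female null brains apart from all wild-type brains, against 1.92% of all probe sets. The Gapdh ratio differed between the female groups too, at 2.19 to 3.58 in null and 3.91 and 3.81 in wild-type females. Its part in these values was not tested.

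The difference between the sexes was itself tested as the interaction, the female genotype difference minus the male one. Of the members, 2 of 8 were called, against 15.9% of all probe sets: Gabra6 92940_s_at at -1.60 (SE 0.31, limma adjusted p = 0.00592) and Gabbr1 at -1.05 (SE 0.26, adjusted p = 0.0185). The call of Gabbr1 was lost without null 2 (adjusted p = 0.0955), without wild-type 3 (0.0575) and under median centring (-0.83, adjusted p = 0.0741). Slc32a1 gave 0.78 (SE 0.27, adjusted p = 0.0633), and passed without null 1 (1.07, adjusted p = 0.0325) and under median centring (1.0, adjusted p = 0.0307), but was 0.50 without null 2 (adjusted p = 0.294) and 0.58 under quantile normalization (adjusted p = 0.122). Gabra2 gave -1.42 (SE 0.78, adjusted p = 0.236), between -0.38 without wild-type 3 and -2.46 without wild-type 5 (adjusted p = 0.764 and 0.0506). Gabrd gave -0.88 (SE 0.44, adjusted p = 0.198) and Gabrb1 0.30 (SE 0.23, adjusted p = 0.417). Gad1 gave -0.17 (SE 0.16) and Gabra6 92939_at 0.04 (SE 0.29).

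Levels of the 4 conditions could be placed in order for each probe set. Gabra2, Gabra6 92940_s_at, Gabrd and Gabbr1 were highest in male null brains, apart from the next condition in each, and below them no neighbouring conditions were apart. Slc32a1 and Gabrb1 were lowest in male null brains, apart from the female null brains next to them. For Gad1 the order was male null, female null, wild-type female and wild-type male, with null means of 2086 and 2082, and only the wild-type males were apart from the condition next to them. For Gabra6 92939_at, female wild-type, female null, male wild-type and male null followed each other with overlap at every step.

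Between the sexes, with genotype in the model, 0 of 8 members were called, against 0% of all probe sets (limma, 926 of 7453 with an unadjusted p under 0.05). The female minus male log2 differences were -0.80 (SE 0.27, adjusted p = 0.316) for Gabra6 92940_s_at, -0.68 (SE 0.43, adjusted p = 0.529) for Gabra2, 0.35 (SE 0.18, adjusted p = 0.441) for Slc32a1 and 0.27 (SE 0.15, adjusted p = 0.482) for Gabra6 92939_at. Those of Gabrb1 (0.16), Gabbr1 (-0.16), Gad1 (0.09) and Gabrd (-0.04) were smaller, and 0 of 8 had female brains apart from all male brains, against 0.403% of all. The male null brains enter these values on the male side. Without them Slc32a1 was at -0.02, Gabbr1 at 0.34 and Gabrd at 0.38, each with the opposite sign, and Gabra6 92940_s_at and Gabra2 were at -0.041 and -0.0057.

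Across the members the median genotype difference was 0.31, with 5 of 8 above 0, and that of all 7453 probe sets was 0.03, with 54.0% above 0. Centring each array on its median moved the median of all probe sets to -0.15 and that of the members to 0.13, with 35.2% of all above 0. After quantile normalization these were -0.04 and 0.41, with 45.7% of all above 0. In males the members' median was 0.60 beside 0.05 for all, and in females 0.05 beside 0.02. The members' medians include Gabra2, tested through its higher null values, and count Gabra6 through both its probe sets. They are a description and carry no test. The signs in males of the 6 called members were the same under both scalings.

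The rest of the GABA pathway was read from 65 other genes in lists of receptor partners, metabolism, synapse proteins and GABA neuron genes, of which 41 had a probe set and 30 passed the filter. None of the 30 was called for genotype, between the sexes or in females. In males 7 rose and 1 fell, 8 of 30 against 32.6% of all probe sets, and 4 of 30 were called for a negative interaction, against 8.68%. Their median male difference was -0.02, beside 0.05 for all probe sets.

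Among receptor partners, 6 of 19 genes had a probe set and all 6 were too dim to test. Gabra3, another α subunit, read 67.8 to 73.0 over the male null brains and 0.8 to 10.7 in the other 9. Gabrb2, the β subunit next to Gabra6 on chromosome 11, had 83.6 and 105.7 against 6.2 to 34.2, and Gabrg1, next to Gabra2 on chromosome 5, had 57.4 and 66.8 against 4.1 to 26. Of all tested probe sets, which leave out these dim ones, 20.7% had the male null brains above the other 9. For Gabrg3 the male null signals of 21.3 and 30.0 lay within the 6.9 to 38.0 of the others. Gabrr1 and Gabrr2, subunits known from the retina, also stayed within the range of the others. Gabbr2 was not analysed here.

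Of the metabolism list, 4 of 10 genes had a probe set and 2 were tested. Gad2, the other glutamate decarboxylase gene, was too dim to test, at 70.8 and 94.2 in male null brains against 6.6 to 24.7 elsewhere. Of all tested probe sets, 20.7% were likewise above all other brains in the male null ones. Glul, the glutamine synthetase of astrocytes, had a wild-type level of 358 ± 115 (SD, n = 6) and a null level of 550 ± 134 (SD, n = 5), a log2 difference of 0.80 (limma adjusted p = 0.0964), and it rose by 0.90 in males (adjusted p = 0.0362). The difference for all brains passed without wild-type 3 (1.08, adjusted p = 0.0266). Slc6a13, a GABA transporter, differed by 0.21 (adjusted p = 0.407). Abat was not analysed here.

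In the list of synapse scaffold, trafficking and chloride genes, 14 of 18 had a probe set and 13 were tested, of which 5 rose and 1 fell in males, against 17.8% and 14.8% of all probe sets. Gabarap, a GABA-A receptor trafficking protein, rose most, by 2.53 (limma adjusted p = 6.33e-06), at 933.5 and 952.8 in male null brains against 141.9 to 271.2 elsewhere. Nsf, an ATPase of membrane fusion, rose by 1.74 (adjusted p = 5.94e-05) and Trak2, a mitochondrial transport adaptor, by 1.49 (adjusted p = 2.07e-04). Hap1 rose by 0.78 (adjusted p = 0.00422) and Gabarapl1 by 0.45 (adjusted p = 0.0113). Slc12a2, the chloride importer, fell by 0.63 (adjusted p = 0.0128), from 948 ± 163 (SD, n = 6) in all wild-type brains to 607.7 and 629.5 in the male null brains. Gphn, the gephyrin scaffold of inhibitory synapses, differed by -0.08 in males (adjusted p = 0.669). In females the differences were -0.24 for Gabarap, 0.15 for Trak2, 0.07 for Slc12a2 and under 0.01 in size for Nsf.

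**Figure D4:**
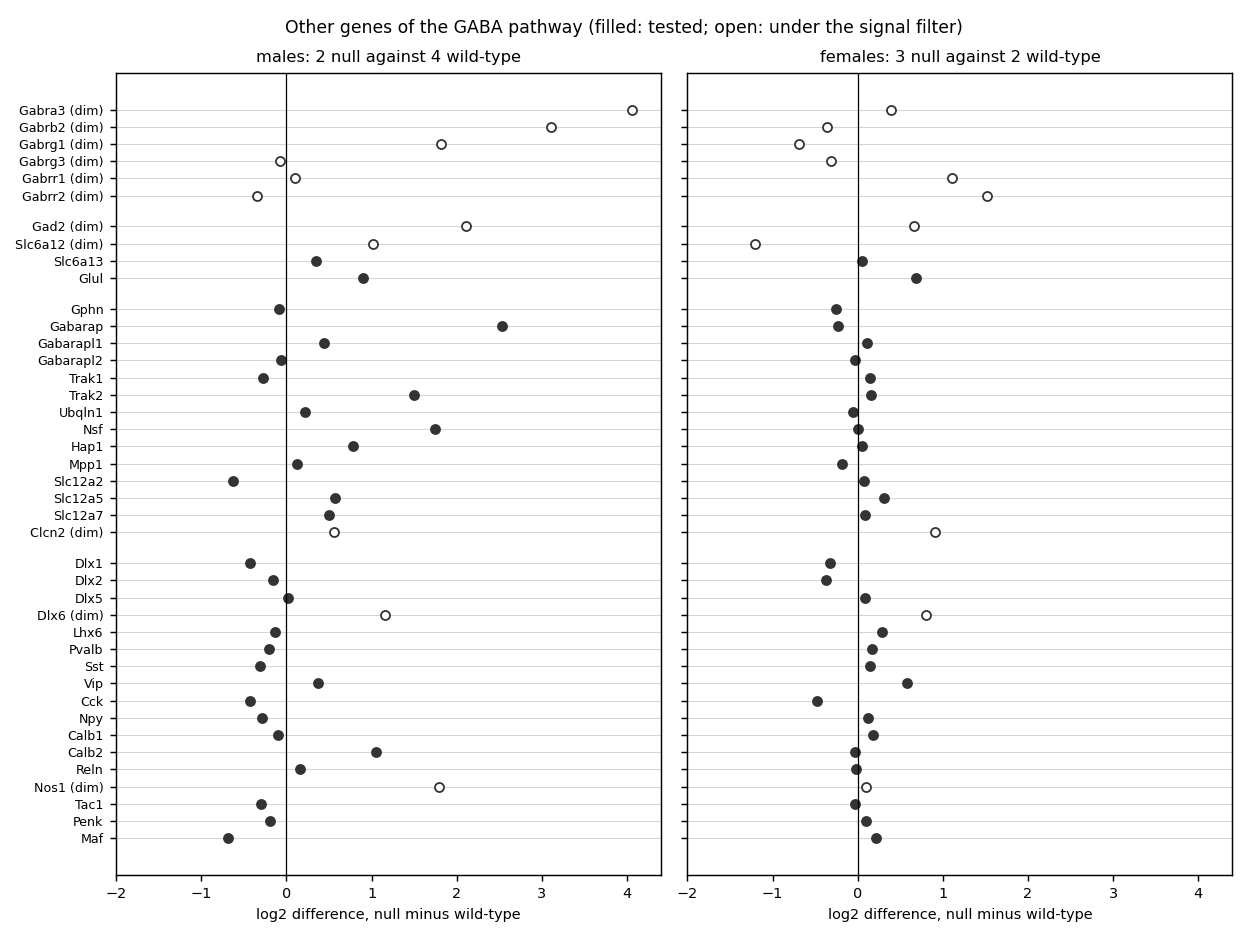
Log2 difference, null minus wild-type, of the 41 other GABA pathway genes with a probe set, in males (2 against 4 brains) and in females (3 against 2 brains); filled points were tested and open points were too dim to test. Gabarap and Nsf stand to the right in males and near 0 in females.

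GABA neuron identity genes bear on Gad1 and Slc32a1, which those cells share. Of 18, 17 had a probe set and 15 were tested, and in males 1 rose and none fell, against the same shares. Calb2, the calretinin gene of some interneurons and of cerebellar granule cells, rose by 1.05 (limma adjusted p = 0.00194). Pvalb (-0.20, adjusted p = 0.369), Sst (-0.32, adjusted p = 0.186) and Npy (-0.29, adjusted p = 0.160) did not pass. Nor did Vip (0.37, adjusted p = 0.522), Reln (0.16, adjusted p = 0.510) and Dlx5 (0.01, adjusted p = 0.964), which lay above 0. The median male difference of the 15 was -0.19. The summed signal of the 17 genes was 9697 and 10187 in male null, 11534 to 12394 in female null and 10729 to 12317 in wild-type brains. Cck differed by -0.45 over all brains (adjusted p = 0.113) and just passed without wild-type 3 (-0.59).

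Markers of other cells and regions moved with the male null brains too, and their part in the members' values was not tested. The summed signal of 13 cerebellar genes, which bear on Gabra6 and Gabrd, was 4001 to 4491 in male null brains, 5325 to 5996 in female null and 5414 to 6644 in wild-type brains, and 4 of 12 tested fell in males (14.8% of all probe sets) with none called higher. For 11 general neuron genes it was 17297 and 17688, 14336 to 15428 and 11728 to 15245, and 8 of 11 rose in males (17.8% of all). Striatal sums (5 genes) were 2915 to 3027 in male null, 3408 to 4073 in female null and 3200 to 3966 in wild-type brains. Cortical or hippocampal sums (9 genes) were 3420 to 3865 in male null brains and overlapped the 3776 to 4458 of female null brains, beside 4185 to 6502 in wild-type brains. Of 7 tested, 1 rose and 2 fell in males (17.8% and 14.8% of all). The sums of oligodendrocyte genes were 7366 to 7706 in male null brains, inside the wild-type range of 5932 to 8940. Astrocyte genes, at 15612 to 18495, also lay inside the wild-type range of 15114 to 18675, as did endothelial and mural genes at 1502 to 1587 (wild-type 1262 to 1811). Single genes of these 3 lists were still called in males: 2 rose and 1 fell of 8 tested oligodendrocyte genes. Of 10 astrocyte genes 1 rose and 1 fell, and of 11 endothelial and mural genes 2 rose and 1 fell (17.8% and 14.8% of all). Choroid plexus sums (4 genes) were 685 to 931 in male null brains, below the 1194 to 1425 of female null and 999 to 1774 of wild-type brains, and 2 of 3 tested fell in males. Microglial sums (9 genes) were 2141 to 2481, against 1646 to 1895 in female null and 1760 to 2158 in wild-type brains, and of 7 tested 3 rose and 2 fell in males. No marker was at 0 in all brains, and none of these lists had a call without the male null brains (0% of all probe sets).

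Likeness of pattern was read from Pearson's r of log2 signals over the 9 brains other than the male null ones, as a description. The closest to Gabrd was Calb2, at r = 0.950 over 9 brains and 0.948 over all 11, followed by Bckdk at 0.946 and 0.948. Closest to Gad1 were Acp1 (0.969 over 9 brains, 0.731 over 11) and Ctnna2 (0.959 and 0.748), and to Slc32a1 Tnpo3 (0.943 and 0.846) and Taf6 (0.941 and 0.311). Gabra6 was closest to Scaf8 (0.968 and 0.676) and Slc4a2 (0.952 and 0.409), and Gabra2 to Krr1 (0.921 and 0.158) and Thyn1 (0.917 and 0.333). For Gabrb1 these were Nfyc (0.966 and -0.13) and St3gal5 (0.958 and 0.499), and for Gabbr1 Mapre3 (0.946 and 0.230) and Rsl1d1 (0.943 and 0.0115). With 9 brains and so many genes, values this high at the top of a ranking carry no test.

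Among the members themselves the pair Gad1 and Slc32a1 had r = -0.67 over the 9 brains and -0.59 over all 11. Gabra2 and Gad1 had 0.713 and 0.721, and Gabra6 92939_at and Gabbr1 had 0.722 and 0.188. Gabra2 and Gabrb1, on one cluster, had -0.51 and -0.77, and Gabrb1 and Slc32a1 had 0.451 and 0.777. Pairs such as Gabrd with Gabbr1 (0.452 and 0.717) were higher with the male null brains included. All these values share the same arrays, and each array's scaling enters every gene on it.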

How the data were processed

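The deposited values are 1 linear intensity per probe set and array, which the authors computed by MAS5 (submitters' processing notes, per the labels); its version and scaling target are not given in the sources used here. After trimming 2% at each end every array had a mean of 149.97, so the arrays were used as scaled. Of 12488 probe sets, 66 controls were left out. In the platform annotation 10833 of the rest had 1 gene, 396 several and 1193 no gene, and 10817 named ones matched RefSeq symbols.

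Intensities under the 10th percentile of the table (3.1) were raised to it and log2 taken, so folds of dim genes are understated. Probe sets with a mean log2 under the 40th percentile (4.69) were not tested, leaving 7453. limma 3.58.1 in R 4.3.3 (lmFit, eBayes with trend) was fitted across all of them, with Benjamini-Hochberg adjustment and a threshold of 0.05, for genotype (sex as covariate), sex (genotype as covariate) and their interaction; the script was tested on simulated data. The floor applied to 7.76% to 11.9% of an array's values. Precision is limited by the number of arrays. No 2 arrays were identical (r from 0.863 to 0.969). Lists used the brightest probe set of a gene. All member probe sets are named. Of other pathway genes, those fixed by name in the plan and the widest of each list are named. Those called in males and further genes of the lists were chosen after their values were seen. Members and lists were chosen with earlier results of these data known. Other scalings, floors, filters, covariates and left-out brains were tried as alternatives.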

Additional observations from a re-analysis of the deposited data

Results flagged for a closer look

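Gad1 in wild-type 3 had a signal of 2064, far above the other wild-type brains (1622 to 1769). The rule was Dixon's gap ratio within a genotype, both sexes together, above 0.625 for 6 brains or 0.71 for 5. Chance flags about 1 in 20 groups. As 16 groups were examined for the members, 1 such flag is no more than chance may give. Gabra6 92940_s_at had a genotype difference in females that was lower than that in males by an interaction of -1.60 log2, by limma's interaction test. Gabbr1 had an interaction of -1.05 in the same test.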

How the results depend on the processing

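Members called for genotype numbered 0 with all brains and with each of 13 other settings, and 0 to 3 when 1 brain was left out (3 without wild-type 3, 3 without wild-type 5); other pathway genes 0 to 4 and all probe sets 1 to 873. The count over all probe sets, 2 with all brains, was 29 among B4 animals, 1 with the 60th percentile filter, median centring, quantile normalization or no covariate, and 0 with no filter, age, the Gapdh ratio or without the male null brains. With 1 brain left out, males gave 3 to 7 members, 5 to 9 pathway genes and 1219 to 2485 probe sets, the interaction 1 to 3, 2 to 6 and 462 to 1403, females 0 to 4 probe sets and sex 0 to 32. Members with an interaction fell to 1 with no filter, pathway genes called in males rose to 14 with median centring, and over all probe sets females gave 1 with median centring or the 60th percentile filter and sex 2 with a 20th percentile floor and 3 with no filter.

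Signs turned for uncalled values. Genotype differences became, with the Gapdh ratio, -0.34 (Gabbr1), -0.10 (Gabra6 92940_s_at), -0.078 (Gabrd), -0.23 (Calb2), -0.59 (Gabarap) and 0.0085 (Slc12a2); without the male null brains, -0.14 (Gabbr1), -0.036 (Calb2), -0.24 (Gabarap) and 0.072 (Slc12a2). Gabra6 92939_at turned to 0.031 (no covariate), 0.0048 (quantile) and 0.060 (age), in females to 0.0060 and in males to 0.0038 (quantile), and ranged with 1 brain left out from -0.12 to 0.033 (all), -0.23 to 0.12 (males), -0.23 to 0.19 (females) and -0.18 to 0.25 (interaction). In females the ranges were -0.15 to 1.94 for Gabra2, -0.36 to 0.0024 for Gabrb1 and -0.11 to 0.46 for Gabrd. The Gad1 interaction was 0.046 with median centring. Sex differences became 0.029 (median centring) and 0.34 (no male null) for Gabbr1, 0.14 (median centring), 0.13 (no covariate), 0.13 (quantile) and 0.38 (no male null) for Gabrd, -0.018 (quantile) for Gad1 and -0.024 (no male null) for Slc32a1, and ranged from -0.32 to 0.0084 for Gabbr1 and -0.27 to 0.10 for Gabrd with 1 brain left out. The cause was not tested. Low signal limits what was measured for Gabra2, the dimmest member, and for the receptor partners that could not be tested. No paired analysis was possible because the labels give no replicate numbers shared between genotypes.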
